A study of Mus musculus with 6 samples.

Results

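The 6 actin genes of the mouse genome, Acta1, Acta2, Actb, Actg1, Actg2 and Actc1, were examined in total RNA profiles of mouse embryonic stem cells with a normal or a reduced dose of Srrm2. The genes were taken by name, as the whole family of conventional actins, from a table of 42450 genes. They were also selected on their measured counts in the Srrm2+/- and WT libraries, since that difference was known when they were chosen. Their levels, fold changes and shares are therefore given as a description, without a test. The WT cells were the male line E14tg2a.4, with 3 replicates. The Srrm2+/- cells, with 3 replicates, were its derivative CG0630, which carries a gene-trap truncation in 1 allele of Srrm2. Both were kept with leukemia inhibitory factor (LIF) and moved to serum-free ESGRO medium with LIF before collection. The Srrm2+/- cells were a single gene-trap line and, per the study's methods, were at lower passage numbers than the WT cells, so genotype, line and passage cannot be told apart.

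Actin is the protein of the thin filaments that shape the cell and drive its movement. Actb and Actg1 encode the cytoplasmic β- and γ-actins of nearly every cell. Acta1 encodes the skeletal muscle actin, Actc1 the cardiac actin, Acta2 the smooth muscle α-actin of vessels and myofibroblasts, and Actg2 the smooth muscle γ-actin of the gut. The proteins are close to identical and differ mainly at their amino terminus. Actin genes are textbook targets of the serum response factor (SRF), which binds the CArG box, an element that opens with CC, closes with GG and holds A or T bases between. Monomeric actin binds the SRF cofactors of the MRTF family and keeps them in the cytoplasm, which links transcription of the genes to the state of the filaments.

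The first 60 coding bases are shown because the proteins are known to differ most there, and because the count of each gene depends on how far reads can tell such close relatives apart. Sequences are from the main coding transcript of each gene in GENCODE release M21 (build GRCm38), 5′ to 3′, and capitals mark bases that do not match Actb in a pairwise alignment of the whole coding sequences.
Actb: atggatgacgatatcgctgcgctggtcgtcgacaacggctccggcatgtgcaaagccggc
Actg1: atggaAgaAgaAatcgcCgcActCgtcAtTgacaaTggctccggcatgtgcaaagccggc
Acta1: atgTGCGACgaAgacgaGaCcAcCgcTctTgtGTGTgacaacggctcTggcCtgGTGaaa
Actc1: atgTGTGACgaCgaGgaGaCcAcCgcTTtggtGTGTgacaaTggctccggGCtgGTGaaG
Acta2: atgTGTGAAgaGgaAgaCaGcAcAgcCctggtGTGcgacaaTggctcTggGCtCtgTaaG
Actg2: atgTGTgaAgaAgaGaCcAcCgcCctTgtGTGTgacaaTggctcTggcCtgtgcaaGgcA

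Over the whole coding sequence, Actb and Actg1 were 88.7% identical, and Acta1 and Acta2 were 85.4% identical. The counting tool matches reads by words of 31 bases. Of the words of Acta1, 95.9% occurred in no other annotated gene, and the share was 98.6% for Acta2, 98.8% for Actg2 and 99.2% for Actc1. It was lower for the cytoplasmic genes, at 76.4% for Actb and 59.8% for Actg1. Of the words of Actg1, 40.2% were shared with genes outside the family, among them processed pseudogenes such as Gm12715, which has 93.8% of its words in the actin genes. Among the genes that share words with Actb is the protein-coding Lrrc58, with 432 of its 8574 words in the actin genes. Counts of Actb and Actg1 can therefore divide some reads with other genes, pseudogenes among them. Nearly all words of the muscle isoforms were their own, but which words their reads came from was not tested. Acta1 and Actb shared an identical run of 77 coding bases. Of the words of Acta1, 3.72% also occurred in Actb.

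All 6 genes are protein coding and lie on the minus strand of GRCm38. Acta1 is at chr8:123891769-123894751, Acta2 at chr19:34241090-34255590, Actb at chr5:142903115-142906754, Actg1 at chr11:120345690-120348542, Actg2 at chr6:83512905-83536265 and Actc1 at chr2:114047282-114053548. Acta1 lies inside Gm20388 and Actc1 inside A530058N18Rik, both annotated on the other strand, and the strand setting of the counting is not given in the sources used here. Gm20388 had 828, 750 and 480 counts in the WT libraries and 518, 342 and 191 in the Srrm2+/- libraries, so its counts did not follow those of Acta1. A530058N18Rik had 1 count over all 6 libraries.

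Promoter stretches are shown because most of the members were higher in the same libraries and because SRF acts through the CArG box. RefSeq promoter sequences (build GRCm38.p6, 250 bases before to 50 after the start) were at hand for Acta1, Acta2, Actc1 and Actg1. Stretches are given 5′ to 3′ on the minus strand, with the CArG box in capitals, or, for Acta2, each of its boxes that is 1 base away from a CArG box. Bases that GENCODE counts as exon were left out, except in the Acta2 windows, which fall in its annotated first exon. The Actc1 stretch lies just upstream of its main transcript and within an intron of another annotated Actc1 transcript.
Acta1, chr8:123894796-123894925: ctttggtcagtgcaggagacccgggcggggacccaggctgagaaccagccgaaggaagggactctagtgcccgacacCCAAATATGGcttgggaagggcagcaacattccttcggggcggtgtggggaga
Actc1, chr2:114052896-114053025: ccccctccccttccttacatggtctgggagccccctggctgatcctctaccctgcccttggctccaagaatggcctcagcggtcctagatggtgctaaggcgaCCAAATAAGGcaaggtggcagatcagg
Actg1, chr11:120348543-120348645: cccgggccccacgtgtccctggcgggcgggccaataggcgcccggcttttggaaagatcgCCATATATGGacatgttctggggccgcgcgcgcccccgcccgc
Acta2, chr19:34255438-34255467: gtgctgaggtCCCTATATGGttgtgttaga
Acta2, chr19:34255388-34255417: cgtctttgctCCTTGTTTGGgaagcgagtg

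An exact CArG box stood in the windows of Acta1 (from base -73), Actc1 (from base -47) and Actg1 (from base -90), counted from the RefSeq start. Over all 32851 RefSeq promoter windows of the same length, 535 (1.63%) held an exact box. The Acta2 window held no exact box but 2 that are 1 base away, from bases -84 and -34. Boxes 1 base away also stood in the windows of Actc1 (from bases -175, -138 and -87) and Acta1 (from bases -205 and -154). A box at most 1 base away is common, and was found in 21.1% of all windows. The box reads the same way on both strands, so a single search covers them. These matches describe letters in a window and do not show binding.

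**Figure D1:**
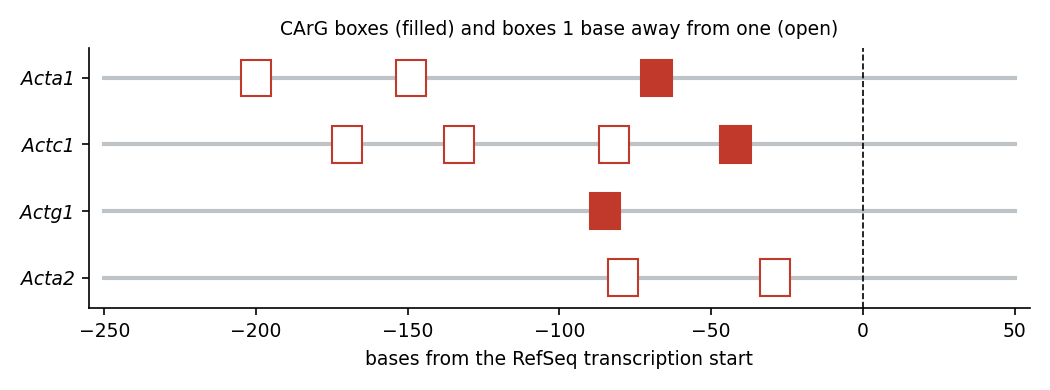
Positions of CArG boxes (filled) and of boxes 1 base away from one (open) in the 4 promoter windows, in bases from the RefSeq transcription start (dashed line). Acta1, Actc1 and Actg1 each hold 1 filled box, and open boxes number 3 in Actc1, 2 in Acta1 and 2 in Acta2.

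The libraries held between 54151532 and 69933465 estimated counts. Levels are given as CPM, counts scaled to the size of each library. The mean level of Srrm2 itself over 3 WT libraries was 95.7 ± 3.94 CPM, against 59.3 ± 3.02 CPM over 3 Srrm2+/- libraries (± SD), and the groups did not overlap, with Srrm2 lower in the libraries so labelled. The stem cell markers were high in every library. Their summed level (8 of 8 tested) ran from 4040.2 to 4251 CPM among WT libraries and from 3406 to 3546 CPM among Srrm2+/- libraries. Of these markers, 6 were called lower and 1, Utf1, higher, while Pou5f1 did not pass the test. The median log2 fold change of all 18905 tested genes was -0.00254, a value that the TMM scaling itself holds near 0.

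Actb was by far the most abundant isoform. It had 1963, 2003 and 2073 CPM in the WT libraries and 2890.1, 2581 and 2813 CPM in the Srrm2+/- libraries. Every Srrm2+/- library was above every WT library, and the Srrm2+/- libraries were spread more widely. The WT mean was 2013 ± 55.8 CPM and the Srrm2+/- mean 2761 ± 161 CPM (SD, n = 3 each), a 1.37-fold difference (log2 fold change 0.46, SE 0.05).

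Actg1, the other cytoplasmic isoform, differed more. The WT libraries had 309.7, 293 and 313 CPM, and the Srrm2+/- libraries 779, 726 and 760.4 CPM. The groups lay far apart relative to the spread within each. The means were 305 ± 11.0 and 755 ± 26.5 CPM (SD, n = 3 each), a 2.47-fold difference (log2 fold change 1.31, SE 0.05).

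Acta2, the smooth muscle α-actin, was scarce in WT cells, with 3.42, 1.90 and 2.11 CPM. In Srrm2+/- cells it had 38.3, 50.8 and 42.5 CPM. The lowest Srrm2+/- library thus exceeded the highest WT library many times over. The means were 2.48 ± 0.825 and 43.9 ± 6.36 CPM (SD, n = 3 each), a 17.7-fold difference (log2 fold change 4.15, SE 0.19).

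Acta1, the skeletal muscle actin, was close to the limit of detection in WT cells, with 17, 8 and 18 counts per library. In Srrm2+/- cells it had 410, 344 and 263 counts. These correspond to 0.306, 0.138 and 0.336 CPM in WT and to 5.92, 4.99 and 4.26 CPM in Srrm2+/-, and the groups did not overlap. The means were 0.260 ± 0.107 and 5.06 ± 0.833 CPM (SD, n = 3 each), a 19.4-fold difference (log2 fold change 4.28, SE 0.27). WT replicate 2 was the lowest WT library for Acta1 and for Acta2.

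Actc1 and Actg2 did not pass the filter on low counts. Actc1, the cardiac actin, had 0, 3 and 0 counts in the WT libraries and 6, 33 and 19 in the Srrm2+/- libraries. Its summed counts were 3 of 166856816 in WT and 58 of 200219530 in Srrm2+/-, a ratio of 16.1 per total count with a 95% interval of 5.25 to 80.4. Actg2, the enteric smooth muscle actin, had 3, 2 and 3 counts in the WT libraries and 13, 9 and 3 in the Srrm2+/- libraries. Its ratio of summed counts was 2.604 with a 95% interval of 1.14 to 6.68. The groups overlapped for Actg2 but not for Actc1. The exact intervals cover counting error alone and leave out the spread between libraries, which for Actc1 spanned 6 to 33 counts within Srrm2+/-.

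**Figure D2:**
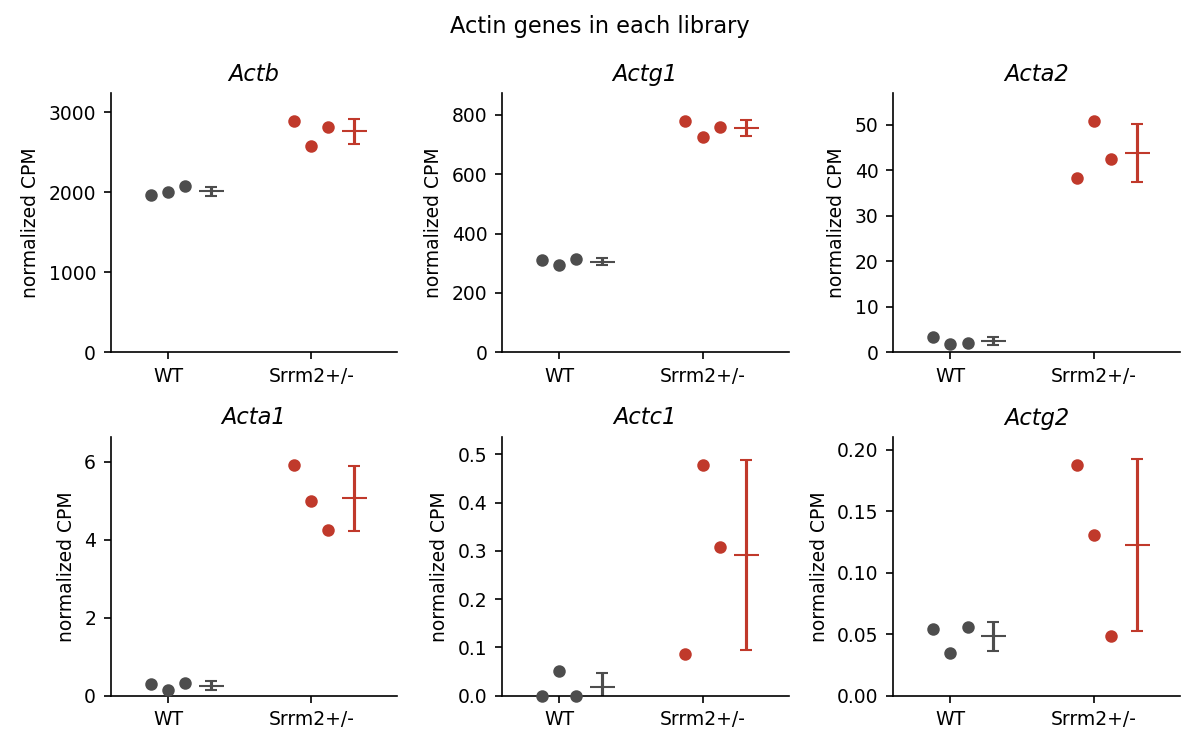
Normalized CPM of each actin gene (vertical axes, linear, a separate scale per gene) in the 3 WT (grey) and 3 Srrm2+/- (red) libraries, with points for libraries and the bar for mean ± SD. All Srrm2+/- libraries lie above all WT libraries for Actb, Actg1, Acta2, Acta1 and Actc1, while Actg2 overlaps.

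Of the 6 genes, 4 passed the filter, and Acta1 passed it because of its Srrm2+/- libraries. Each of the 4 was called higher by edgeR (adjusted p under 0.05), where 25.3% of all tested genes were called and 13.6% were called higher. Since the comparison was in view when the genes were chosen, nothing is read from that count. Among the 18905 tested genes ordered by log2 fold change, Acta1 was at place 19, Acta2 at 22, Actg1 at 648 and Actb at 2611. The isoform with the highest level thus had the smallest log2 fold change of the 4, and the isoform with the lowest level had the largest.

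To compare levels between genes, CPM were divided by the length of the main coding transcript. Per kilobase, Actb was at 1049 ± 29.1 CPM in WT cells and at 1438 ± 83.9 CPM in Srrm2+/- cells, and Actg1 was at 156 ± 5.66 and 387 ± 13.6 CPM (SD, n = 3 each). Acta2 followed with 1.22 ± 0.405 and 21.6 ± 3.13 CPM per kilobase, and Acta1 with 0.180 ± 0.0737 and 3.50 ± 0.576 (SD, n = 3 each). Both Actg2 (0.0362 ± 0.00888 and 0.0918 ± 0.0525) and Actc1 (0.0117 ± 0.0203 and 0.198 ± 0.133) were lowest (CPM per kilobase, SD, n = 3 each). The order Actb, Actg1, Acta2, Acta1 was the same in both genotypes and the 4 genes were separated beyond their spread. Actg2 and Actc1 overlapped in both genotypes and were not separated.

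Among 14704 tested protein-coding genes ordered by CPM per kilobase, Actb moved from place 54 in WT to 32 in Srrm2+/-, and Actg1 from 327 to 138. Acta2 moved from place 9734 to 2509, and Acta1 from 12825 to 7608. Acta2 therefore went from the lower part of the list to the upper part, and Acta1 from its lower end to near its middle.

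The composition of the actin transcripts was compared as the share of each gene in the summed actin counts. In WT cells Actb held 86.2%, 87.2% and 86.8% of the counts, and in Srrm2+/- cells 77.8%, 76.7% and 77.7%. Wilson 95% intervals of single-library shares reached at most 0.191 percentage points from the value, and cover counting error alone. The mean share of Actb was 86.7 ± 0.472% in WT cells and 77.4 ± 0.603% in Srrm2+/- cells (SD, n = 3 each), although its level was higher in Srrm2+/-. The shares of 1 library sum to 100%, so they are not independent of each other.

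Actg1 took up most of the difference. Its share was 13.2 ± 0.434% in WT cells and 21.2 ± 0.353% in Srrm2+/- cells (SD, n = 3 each), with WT libraries from 12.7% to 13.6% and Srrm2+/- libraries from 20.97% to 21.6%. Acta2 held 0.107 ± 0.0375% in WT cells against 1.24 ± 0.246% in Srrm2+/- cells, and Acta1 0.0112 ± 0.00448% against 0.142 ± 0.0216% (SD, n = 3 each). Acta1 and Acta2 together made up 0.0888% to 0.164% of the summed counts in WT and 1.19% to 1.66% in Srrm2+/-. The muscle isoforms thus stayed a small part of the pool in both genotypes. Per transcript length, the mean shares in Srrm2+/- were 77.7% for Actb, 20.9% for Actg1, 1.17% for Acta2 and 0.189% for Acta1.

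**Figure D3:**
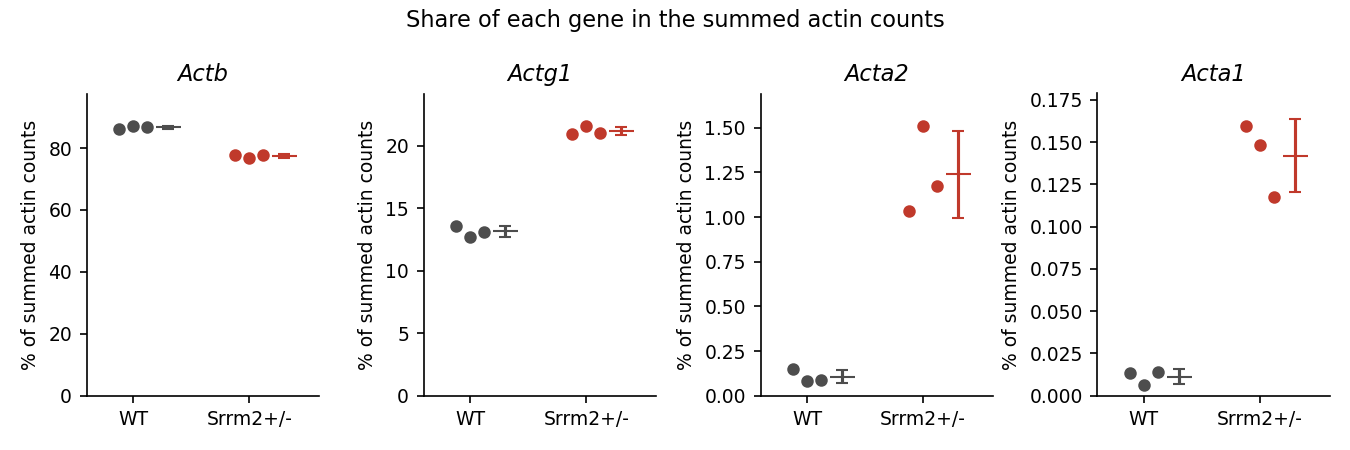
Percent of the summed counts of the 6 actin genes held by Actb, Actg1, Acta2 and Acta1 (vertical axes, linear from 0, a separate scale per gene) in WT (grey) and Srrm2+/- (red), with points for libraries and the bar for mean ± SD. Actb is lower by share in all Srrm2+/- libraries and the other 3 genes are higher.

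The ratio of Actb to Actg1 per length was 6.44, 6.96 and 6.73 in WT and 3.77, 3.61 and 3.76 in Srrm2+/-. Its mean was 6.71 ± 0.257 in WT cells and 3.72 ± 0.0899 in Srrm2+/- cells (SD, n = 3 each), with no overlap. The ratio of Acta2 to Acta1 per length was 7.39 ± 2.70 in WT cells and 6.30 ± 1.48 in Srrm2+/- cells (SD, n = 3 each). Its WT libraries ranged from 4.46 to 9.77 and its Srrm2+/- libraries from 4.59 to 7.24, so the balance of the pair of muscle isoforms was not separated between the genotypes. In Srrm2+/- replicate 2, Acta2 was at its highest and Actb and Actg1 at their lowest of the 3 Srrm2+/- libraries.

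Summed over the 6 genes, actin transcripts were at 2277, 2298 and 2389 CPM in WT and at 3713, 3364 and 3621 CPM in Srrm2+/-. The means were 2321 ± 59.8 and 3566 ± 181 CPM (SD, n = 3 each), a ratio of 1.54. As a share of all estimated counts of a library, the family held 0.232 ± 0.00464% in WT cells and 0.356 ± 0.0184% in Srrm2+/- cells (SD, n = 3 each). Of the difference in summed CPM, Actb made up 60.1%, Actg1 36.2%, Acta2 3.32% and Acta1 0.385%. The cytoplasmic genes thus carried nearly all of the added transcripts, and the genes with the largest fold changes carried little of them.

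Cells of other types were then looked for through their markers, with the actin genes left out, because Acta1, Acta2 and Actc1 are best known from muscle. Of 12 skeletal muscle markers, 3 were tested and 1, Actn3, was called lower, beside 11.7% of all tested genes. Their summed level was 16.9 to 18.5 CPM in WT and 13.9 to 14.9 CPM in Srrm2+/-, mostly from Actn3. The myogenic factor Myod1, the creatine kinase Ckm and the myosin Myh2 had 0 counts in every library. Tnnt3, a troponin of fast muscle, had 1, 0 and 0 counts in WT and 11, 15 and 23 in Srrm2+/-, below the filter.

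Of 10 cardiac muscle markers, 5 were tested and 2 were called higher (Myh7 and Nppb), beside 13.6% of all tested genes. Their summed level was 12.9 to 14.9 CPM in WT and 11.7 to 14.5 CPM in Srrm2+/-. Nppb, with 8, 3 and 8 counts in WT, passed the filter because of its Srrm2+/- libraries. Of 8 smooth muscle markers, 7 were tested and 4 were called higher (Cnn1, Smtn, Lmod1 and Des), beside 13.6% of all tested genes. Their summed level was 21.5 to 22.8 CPM in WT and 34.9 to 38.8 CPM in Srrm2+/-. Calponin, Cnn1, rose from 0.739 to 6.53 CPM (means, n = 3 per genotype, log2 difference 3.14, SE 0.15, edgeR adjusted p 2.60e-06). Myh11, the defining myosin of mature smooth muscle, had 4, 10 and 0 counts in the WT libraries and 10, 0 and 13 in the Srrm2+/- libraries, and was not tested.

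Of 10 fibroblast and mesenchyme markers, 8 were tested and 5 called higher (Col1a1, Col1a2, Col3a1, Postn and Twist1), beside 13.6% of all tested genes. Their summed level was 5.40 to 5.71 CPM in WT and 11.1 to 14.6 CPM in Srrm2+/-. Col1a2 (6, 15 and 12 counts in WT) and Postn (8, 3 and 6) passed the filter because of their Srrm2+/- libraries. Thy1 and Pdgfra, surface markers of fibroblasts, were at 1.93 and 0.327 CPM in WT and 1.19 and 0.248 CPM in Srrm2+/- and did not pass the test. The part of any such cells in the actin levels was not tested, and in bulk RNA a change in the number of cells and a change in RNA per cell cannot be told apart.

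Other genes of the actin pathway were taken from lists of 135 genes, of which 119 were tested. Of these, 33 were called higher and 10 were called lower, which is 36.1% of them, beside the 25.3% of all tested genes. The log2 fold changes had a median of 0.08. Fold changes of the size of Acta1 and Acta2 were not found in the lists, whose largest was 2.72, for Gsn. Gsn was at only 0.217 CPM in WT and passed the filter because of its Srrm2+/- libraries.

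Genes that bind actin monomers or turn filaments over held the highest share of calls, with 8 of 14 tested higher and 1 lower (median log2 fold change 0.30). That is 64.3% called, beside 25.3% of all tested genes. Wdr1, which helps cofilin to take filaments apart, rose from 70.8 ± 5.15 to 133 ± 8.43 CPM (SD, n = 3 per genotype, log2 difference 0.91, SE 0.06, edgeR adjusted p 1.97e-05). Tmsb4x, a thymosin that sequesters monomers, rose from 76.9 ± 5.58 to 119 ± 11.9 CPM (log2 difference 0.63, SE 0.08, edgeR adjusted p 0.000504). Profilin, Pfn1, which loads monomers onto growing ends, rose by 0.40 and destrin, Dstn, which severs filaments, by 0.38 on the log2 scale. Twinfilin 1, Twf1, a monomer-binding protein, was the 1 gene that fell, by 0.21 on the log2 scale (named after its value was seen). The largest value of the list, 1.96 for Cap2, belongs to a gene at 0.327 CPM in WT (also named after its value was seen).

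Of the Arp2/3 complex, which starts branched filaments, and its activators, 6 of 19 tested genes rose and 0 fell (31.6%, median 0.06). Over all tested genes, 13.6% were called higher and 25.3% either way. Arpc5 rose by 0.62 (SE 0.05, edgeR adjusted p 4.86e-05), Arpc4 by 0.35, Arpc2 by 0.22 and cortactin, Cttn, by 0.30 on the log2 scale. Of the formins and other nucleators of unbranched filaments, 6 of 18 tested genes rose and 2 fell (median 0.15). That is 44.4% called, beside 25.3% of all tested genes. Fmn2 rose by 0.90 (SE 0.11, edgeR adjusted p 0.000384), Fmnl2 by 0.65 and Spire1 by 0.53, and Cobl fell by 0.79 (SE 0.06, edgeR adjusted p 3.46e-05) on the log2 scale. The other gene that fell was Spire2 (by 0.24, named after its value was seen).

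Genes for capping, severing and bundling went both ways, with 8 of 30 tested higher and 5 lower (median 0.05). That is 43.3% called, beside 25.3% of all tested genes. Lcp1, a bundling protein, rose from 1.94 ± 0.236 to 3.39 ± 0.182 CPM and Capg, a capping protein, from 9.05 ± 0.562 to 15.7 ± 1.74 CPM (SD, n = 3 each). The genes that fell were Coro2b and, named after their values were seen, Fscn1, Coro1b, Enah and Lima1. Coro2b, a coronin, fell by 0.82 (SE 0.19, edgeR adjusted p 0.0137), and Tmod2, a tropomodulin, rose by 0.52 (SE 0.15, edgeR adjusted p 0.0325) on the log2 scale. The call of Coro2b was lost without WT replicate 2 (adjusted p 0.0515). That of Tmod2 was lost without WT replicate 2 or without any 1 of the Srrm2+/- replicates, with log2 fold changes of 0.36 to 0.63 over the alternatives. Without WT replicate 2, the number called in the whole list went from 13 to 8.

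Of the chaperonin subunits, prefoldins and the cochaperone Pdcl3, 2 of 16 tested genes rose (12.5%, beside 13.6% higher among all tested genes, median 0.01). They were Pdcl3, from 40.7 ± 1.39 to 49.7 ± 0.657 CPM (SD, n = 3 per genotype, log2 difference 0.29, SE 0.04, edgeR adjusted p 0.00148), and the chaperonin subunit Cct2, by 0.17 on the log2 scale. Of the actin-related proteins and actin-like genes, 2 of 12 tested rose (16.7%, beside 13.6% higher among all tested genes, median 0.05). Actr3 rose by 0.20 and Actr1a by 0.15 on the log2 scale. The call of Actr3, which is also a subunit of Arp2/3, was lost without WT replicate 2. That of Actr1a was lost without WT replicate 1, WT replicate 3 or Srrm2+/- replicate 3, and in each of these 4 cases the list kept 1 call.

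Of 7 tested enzymes that modify actin, 1 rose and 2 fell (42.9% called, beside 25.3% of all tested genes). Mical1, which oxidizes filaments, fell from 40.4 ± 0.976 to 26.3 ± 0.907 CPM (SD, n = 3 per genotype, log2 difference -0.62, SE 0.05, edgeR adjusted p 3.36e-05). Ate1, which arginylates β-actin, fell by 0.16 on the log2 scale, a call lost without Srrm2+/- replicate 2 or 3. Mical2, a relative that acts on nuclear actin, rose by 0.69 (SE 0.19, edgeR adjusted p 0.0242) from 1.22 CPM in WT (named after its value was seen). The list had 1 call left without Srrm2+/- replicate 3.

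Srf rose from 21.3 ± 0.841 to 42.1 ± 2.40 CPM (SD, n = 3 per genotype, log2 difference 0.99, SE 0.06, edgeR adjusted p 7.09e-06). The actin-sensing cofactors did not pass the test. Mrtfa had a log2 fold change of -0.26 (SE 0.15) and Mrtfb of 0.09 (SE 0.08), with edgeR adjusted p of 0.262 and 0.494. Myocd, the muscle cofactor, was at 1.07 (SE 0.45, edgeR adjusted p 0.12) with 0.133 CPM in WT. Abra and Srfbp1 were at -0.32 and -0.06 on the log2 scale and did not pass it either.

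**Figure D4:**
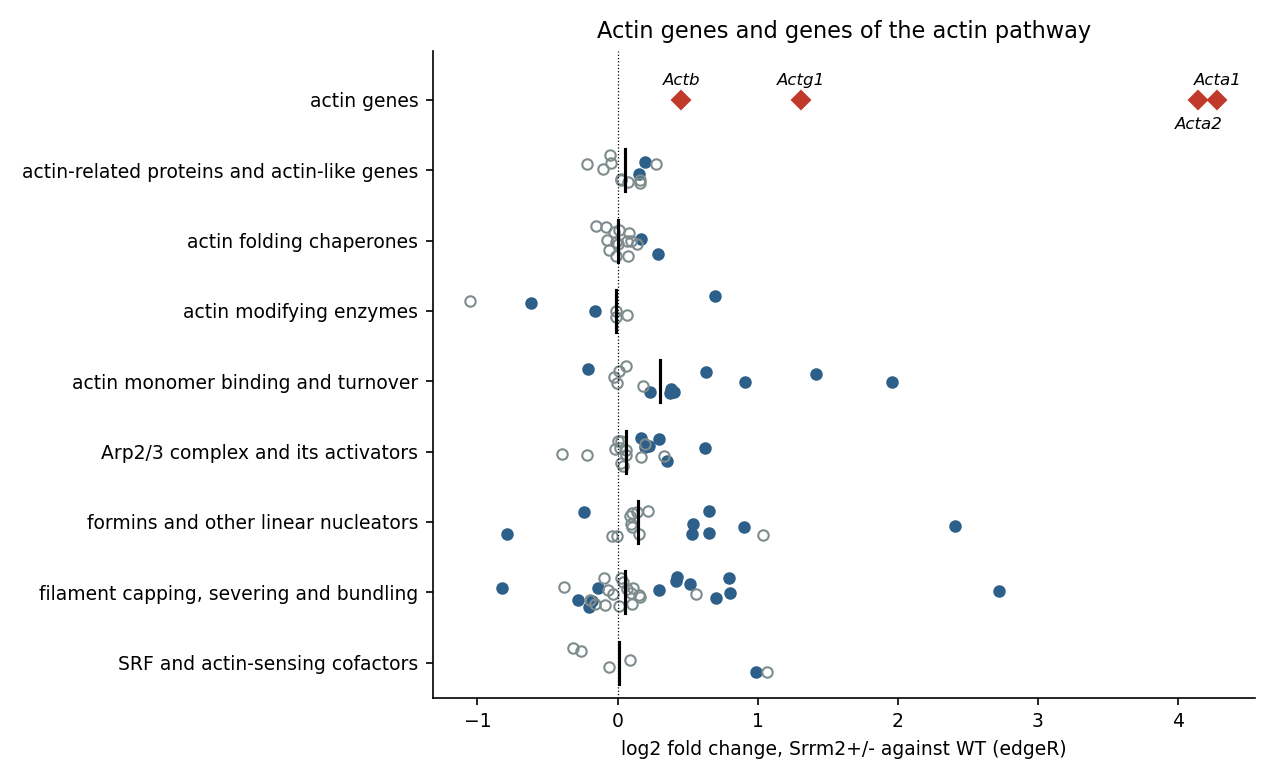
Log2 fold change in Srrm2+/- against WT (horizontal axis) of the 4 tested actin genes (diamonds) and of the tested genes of each pathway list (filled circles called by edgeR, open circles not called, black line the median). Acta1 and Acta2 lie at 4.28 and 4.15, beyond the largest value of any list, 2.72, for Gsn at 0.217 CPM in WT.

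The genes whose pattern over the 6 libraries was most like that of each actin gene were found by the root mean square (RMS) difference of mean-centred log2 CPM among 11961 genes. Tagln, which encodes the actin-binding protein transgelin, was nearest to Acta1 (RMS 0.18) and to Acta2 (RMS 0.21), at 3.58 ± 1.13 CPM in WT cells against 68.4 ± 5.52 CPM in Srrm2+/- cells (SD, n = 3 each). Next were the matricellular genes Ccn1 for Acta1 (RMS 0.26) and Thbs1 for Acta2 (RMS 0.22). Nearest to Actg1 were the collagen receptor gene Ddr1 (RMS 0.0375) and Rab15 (RMS 0.0459), and nearest to Actb were Gnas (RMS 0.0248) and Ehd4 (RMS 0.0276). The same gene was therefore nearest to both muscle isoforms, while the cytoplasmic isoforms had neighbours of their own. The likeness rests mainly on the difference between the genotypes and is a description over 6 libraries.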

How the data were processed

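Total RNA libraries (paired-end, stranded kit) were pseudo-aligned by the authors with Kallisto 0.46.1 to the GENCODE release M24 transcriptome (mm10), and estimated counts per gene, not normalized, were deposited. The strand setting and the summing of transcripts to genes are not given in the sources used here. Groups and replicate numbers came from the sample titles. According to the methods, replicates were 3 separately frozen and thawed batches of each line, so p-values measure the spread between batches of 1 line per genotype. Estimated counts were rounded. Gene symbols and positions were taken from GENCODE release M21, also GRCm38 (42156 of 42450 identifiers matched).

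Genes past filterByExpr (minimum count 10, minimum total 15) were tested with edgeR 4.0.16 (TMM, glmQLFTest, two-sided, genotype as the sole term, 6 libraries), adjusted by Benjamini-Hochberg over 18905 genes and called under 0.05. Adjusted p-values are from this fit unless another tool is named. SE is the log2 fold change divided by the root of F. CPM use TMM-scaled totals. Alternatives used RLE and upper quartile scaling, DESeq2 1.42.0, limma 3.58.1 (voom), other filters, replicate number as a blocking term, omission of single libraries, and other call rules. The fit was tested on simulated data. Deviations of libraries with the same replicate number were not positively correlated (-0.03 for each pair), and the samples were treated as unpaired.

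The actin genes, the gene lists and the rule for named genes (up to 4 called genes per list with the largest change and a mean log2 CPM of at least 1, SRF and its cofactors, and the 2 genes most like each actin gene) were chosen with earlier results of these data known. Of the common reference genes considered, 1 is not reported here. Words of 31 bases were compared on either strand.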

Additional observations from a re-analysis of the deposited data

How the results depend on the processing

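The fold changes of the actin genes are given here as a description. Leaving out 1 library, the log2 fold change ranged from 3.97 to 4.51 for Acta1, from 3.98 to 4.45 for Acta2, from 0.42 to 0.50 for Actb and from 1.28 to 1.34 for Actg1. The ratio of summed actin CPM stayed between 1.504 and 1.58, and the share of Actb differed by -9.56 to -8.96 percentage points. Actc1, too low for the main filter, entered 5 alternatives through its Srrm2+/- libraries, with log2 fold changes from 3.35 to 7.18, and Actg2 entered 1, at 1.33 (SE 0.78). Actc1 was called in 3 of its 5 alternatives, and Actg2 was not called. With counts divided by length, the difference in the share of Acta1 was 0.174 percentage points. Adding the annotated actin pseudogene, or (chosen after seeing the data) the 6 genes with at least 50% of their words in the actin genes, moved no share by more than its spread.

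The number of called genes was 2779 (1574 higher, 1205 lower) at an adjusted p under 0.01, and 1153 (813 higher, 340 lower) at an adjusted p under 0.05 with a log2 fold change of 1 or more in size. Leaving out 1 library gave 3515 to 4122 calls (1956 to 2257 higher, 1559 to 1865 lower), with fewer samples in the fit. With the limit of 1 on the log2 fold change, 2 monomer binding genes, 1 nucleator and 1 capping, severing or bundling gene stayed called, and 0 genes of the other 5 lists. The lists held 119 tested genes, and 1153 of all 18905 tested genes were called under this rule. The genes that stayed were all scarce in WT: Cap2 (0.327 CPM), Pfn4 (0.196 CPM), Lmod1 (0.305 CPM) and Gsn (0.217 CPM), named after their values were seen. Pfn4, like Gsn, passed the filter because of its Srrm2+/- libraries. Leaving out 1 library, calls ranged from 1 to 3 for actin-related proteins, 2 to 3 for chaperones, 1 to 4 for modifying enzymes, 7 to 10 for monomer binding, 5 to 6 for Arp2/3, 6 to 8 for nucleators, 8 to 12 for capping, severing and bundling, and 1 to 1 for SRF and cofactors. Of 23 named called genes of the lists, 18 stayed called at an adjusted p under 0.05 under all 13 alternative fits. These fits changed the scaling, tool, filter or block, or left out 1 library, and do not include the other call rules. Under the limit of 1 on the log2 fold change no named gene stayed called, the largest being Srf at 0.99. With the replicate block, 4166 genes were called, and Acta1 was at 4.29, Acta2 at 4.15, Actb at 0.45 and Actg1 at 1.31.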

Other observations

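Actb is widely used as a reference gene in qRT-PCR, and the study normalised its qRT-PCR of Srrm2 to it. In these libraries, Srrm2 in Srrm2+/- cells was at 62.0% of WT by edgeR, at 45.2% relative to Actb and at 25.1% relative to Actg1. Relative to 11 other common reference genes, a list drawn up with these results known, it lay between 31.6% (B2m) and 67.5% (Sdha). Hprt, among these 11, was at only 0.276 CPM in WT and 0.332 CPM in Srrm2+/-, too low to serve as a reference here. Of these 11, edgeR called 2 higher (B2m and Pgk1) and 1 lower (Sdha), which is 27.3%, beside 25.3% of all tested genes. Gapdh, at 0.12 on the log2 scale (SE 0.05, edgeR adjusted p 0.112), Tbp at -0.01 (SE 0.04, adjusted p 0.873) and Tubb5 at -0.01 (SE 0.04, adjusted p 0.847) did not pass the test, and gave 57.1%, 62.5% and 62.7%.

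The pseudogene Gm12715, which shares most of its words with Actg1, had 310 estimated counts in WT replicate 1, 75 in WT replicate 2 and 66 in WT replicate 3. In Srrm2+/- it had 342, 0 and 1139. Beside the 46917 to 53893 counts of Actg1 in Srrm2+/-, the 6 genes with at least 50% of their words in the actin genes made up at most 0.523% of their own and the actin genes' summed counts in a library. Genes with a smaller share of such words are not in that value, among them the protein-coding Lrrc58, at 5.04%.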
